A study of Sus scrofa with 226 samples.

Results

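The neurons described here are pig sensory neurons whose action potential carried no second inflection. They were chosen by one column of the deposited cell table, X2nd_Infliction, which is coded 0 or 1, and the code 0 is read here as no second inflection. There were 15 such neurons, 6.64% of all neurons of the series (95% exact Clopper-Pearson interval 3.76 to 10.7%, counting error only). All the others, the neurons with the inflection, were coded 1. A further column, named Shoulder, had no value in all 15 neurons without the inflection and in 2 neurons with it.

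All neurons came from wild-type (WT) pigs and from the dorsal root ganglion, which houses the cell bodies of the sensory neurons of trunk and limbs, and no group carried another allele or a drug treatment in the labels. They were cultured, recorded with a patch pipette and then taken up whole into a tube, which links the electrical record of a cell to its RNA (Patch-seq). Smart-Seq2, a method that copies whole transcripts of 1 cell and attaches no molecular identifiers, gave the libraries. The 15 neurons without the inflection came from 8 of the 10 animals, aged 11, 12, 14, 15, 17 and 18 weeks, with 1, 2 or 3 days between plating and recording. Animals 3, 4, 5 and 6 gave 1 such neuron each, animals 7 and 9 gave 2 each, animal 2 gave 3 and animal 10 gave 4. Each of these 8 animals also gave 10 to 34 neurons with the inflection, and another 19 came from animals 1 and 8, aged 11 and 20 weeks. Neurons without the inflection made up 3.23% of the neurons at 1 day (4 neurons), 8.97% at 2 days (7 of 78) and 16.7% at 3 days (4 of 24). These shares pool animals and were not tested.

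In sensory neurons the falling phase of the action potential can be smooth or can carry a hump, also called a shoulder or inflection. As background, the hump is typical of nociceptors, the neurons that detect harmful stimuli, and goes with long action potentials carried in part by slowly inactivating sodium current and by calcium current. Nav1.8 and Nav1.9, encoded by SCN10A and SCN11A, are the sodium channels that mark nociceptors. Fast myelinated A-fibre neurons, which include touch and position sensors, usually fire short action potentials without a hump and are known for NTRK2, NTRK3 and SCN1A, the genes of the receptors TrkB and TrkC and of the sodium channel Nav1.1. TRPM8 is the channel gated by cold and menthol, and it marks cold-sensing neurons.

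Total counts per neuron ran from 147778 to 1961570 (median 761210) in neurons without the inflection and from 109726 to 5506278 (median 735043) in neurons with it. The median number of genes with a read was 13722 without and 13509 with the inflection. Averaged per animal it was 9915 ± 4884 without and 13119 ± 1549 with it (SD, n = 8 animals). That mean was lower in 6 of 8 animals (exact two-sided sign-flip test, p = 0.0859, adjusted p = 0.236). The mean total count was 819748 ± 579628 without and 1062081 ± 765140 with it, lower in 7 of 8 animals (exact p = 0.266). Under 5000 genes were read in 3 of the 15 neurons without the inflection, those of animals 5 and 6 and 1 of animal 7, and in 3 with it. Mitochondrial genes took a median of 11.3% of the counts in neurons without and 4.02% in neurons with the inflection. Averaged per animal it was 12.4 ± 9.35% against 5.29 ± 1.01% (SD, n = 8 animals), higher in 7 of 8 animals (exact two-sided sign-flip test, p = 0.0391, adjusted p = 0.143 over 11 cell properties). The part of this share in the gene results was not tested, apart from the fits without such cells given below. UCHL1, a protein of nearly all neurons, was read in every cell, with a median of 12.81 log2(CPM + 1) without and 12.998 with the inflection, where CPM is the count scaled to a library of 1000000 counts. A list of such genes is given below.

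The action potentials of these neurons were short and started from a more negative voltage. The values come from the same traces as the inflection call, so they describe the selected neurons and were not tested. The deposited table states no unit for any recorded column. The duration column, APD, ran from 0.678 to 2.12 with a median of 1.38 in the 15 neurons without the inflection, and from 1.13 to 9.13 with a median of 3.13 in neurons with it. Per animal it averaged 1.41 ± 0.359 without against 3.27 ± 0.323 with the inflection, and it was lower in 8 of 8 animals. The ranges of single neurons overlapped, since 15 neurons with the inflection had an APD at or under the longest one without it. The peak voltage column (AP_max) averaged 26.97 ± 17.004 without against 49.2 ± 3.24 with the inflection, lower in 8 of 8 animals. The threshold voltage column (AP_threshhold) averaged -56.4 ± 5.44 without against -42.7 ± 2.05 with it, lower in 8 of 8 animals. The amplitude averaged 90.7 ± 16.1 without and 109.5 ± 3.43 with the inflection.

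Repeated stimulation gave the widest separation among columns not read from the shape of the action potential. The columns X2Hz to X100Hz are named by frequency and run from 0 to 20. At 100 Hz the neurons without the inflection had values from 7 to 20 with a median of 20, and 9 of 15 reached 20. Neurons with the inflection ran from 0 to 20 with a median of 4.5, and 6 of 210 reached 20. Per animal the X100Hz value averaged 17.5 ± 3.62 without and 5.75 ± 1.05 with the inflection (SD, n = 8), higher in 8 of 8 animals. The exact sign-flip test gave p = 0.00781, the smallest that 8 animals allow. At 50 Hz the means were 19.1 ± 1.92 without and 11.2 ± 1.48 with the inflection, again higher in 8 of 8 animals with that same p, and 12 of 15 neurons without and 61 of 210 with the inflection reached 20. At 20 Hz the means were 19.6 ± 1.15 without and 16.04 ± 1.80 with it (exact p = 0.0156), but with medians per animal in place of means the difference was -0.375. At 10 Hz they were 19.9 ± 0.354 without and 17.5 ± 1.93 with it (exact p = 0.0312). At 4 and 2 Hz all 15 neurons without the inflection stood at 20, against means of 17.9 ± 1.84 and 18.7 ± 1.45 in neurons with it (p = 0.0156 at 4 Hz and 0.0312 at 2 Hz, exact tests). From 2 to 20 Hz the median over single neurons was 20 in both classes. In both classes the per-animal mean was lower at 100 Hz than at 2 Hz, and the gap between the classes was widest at 100 Hz.

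**Figure D1:**
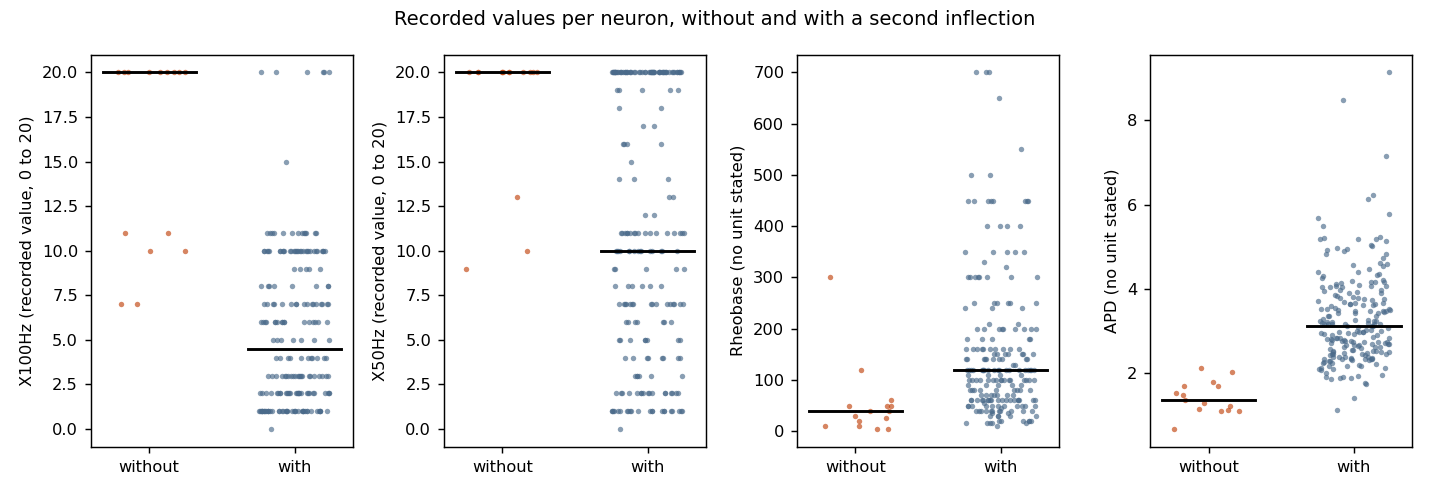
Recorded values of single neurons without and with a second inflection (points are neurons, black lines are medians; vertical axes show the deposited values, without a stated unit). At 100 Hz, 9 of 15 neurons without and 6 of 210 with the inflection stood at 20; APD is plotted as a description, since it comes from the trace that was judged.

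Less current was recorded at firing threshold. Rheobase, by its name the smallest current that triggers an action potential, had a median of 40 (range 4 to 300) in the 15 neurons without the inflection and of 120 (range 10 to 700) in neurons with it. Per animal the means were 44.9 ± 68.8 without and 151.7 ± 40.8 with the inflection (n = 8), lower in 7 of 8 animals (exact sign-flip test, p = 0.0156). The exception was animal 7, at 210, where a single neuron stood at 300. HS_Threshold averaged 72.6 ± 62.8 without against 274 ± 78.4 with the inflection, lower in 7 of 7 animals (exact p = 0.0156, the smallest that 7 animals allow). The column pA_threshold averaged 5.81 ± 61.1 without against 93.1 ± 31.9 with it (exact p = 0.0156). The capacitance column cslow, which as background grows with membrane area, averaged 45.5 ± 27.4 without and 74.5 ± 10.6 with the inflection, lower in 7 of 8 animals (exact p = 0.0234).

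None of the 95 recorded columns tested (0.0%) passed an adjusted p of 0.05 in these exact tests. An unadjusted p under 0.05 was found for 11 columns, and the adjusted p was 0.212 for X100Hz, X50Hz, HS_Threshold and Rheobase and 0.27 for cslow. For any call, 15 columns had to reach the smallest p that 8 animals allow, or still more columns a somewhat larger p. The smallest p was reached by 2 columns. With the columns of the later pulses of a train left out, a choice made after the data were seen, 7 of 21 columns (33.3%) passed that test. They were X100Hz, X50Hz, X20Hz, X4Hz, HS_Threshold, Rheobase and pA_threshold, each at an adjusted p of 0.0469 by the exact test. For X20Hz and X4Hz the limit given above for values at a ceiling holds here too. In limma on ranks 5 of 95 columns (5.26%) passed: X100Hz (adjusted p = 0.00025), Rheobase (0.00451), and HS_Threshold, X50Hz and ADS_RMP_Pulse2 (each 0.0415). ADS_RMP_Pulse2 averaged 0.66 ± 1.14 without and -0.62 ± 0.25 with the inflection (n = 6 animals).

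Size and passive properties overlapped more. The diameter ran from 21.8 to 47.1 with a median of 33.99 in neurons without the inflection and from 20.6 to 54.4 with a median of 37.8 in neurons with it. Per animal it averaged 32.5 ± 7.02 without and 37.1 ± 1.58 with it (exact p = 0.109). The voltage before the action potential averaged -63.8 ± 4.09 without and -60.3 ± 0.38 with the inflection (exact p = 0.0703). The resting potential averaged -60.4 ± 9.58 without and -57.0 ± 1.88 with it (n = 7, exact p = 0.328). The input resistance averaged 0.324 ± 0.357 without and 0.247 ± 0.044 with it (n = 8, exact p = 0.711). Spontaneous activity was recorded in 8 of 15 neurons without the inflection (53.3%, interval 26.6 to 78.7%) and in 43 neurons with it (20.4%, 15.2 to 26.5%). Per animal the shares were 48.96 ± 43.7% without and 21.9 ± 7.83% with it, higher in 5 and lower in 3 of 8 animals (exact p = 0.109, adjusted p = 0.241).

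**Figure D2:**
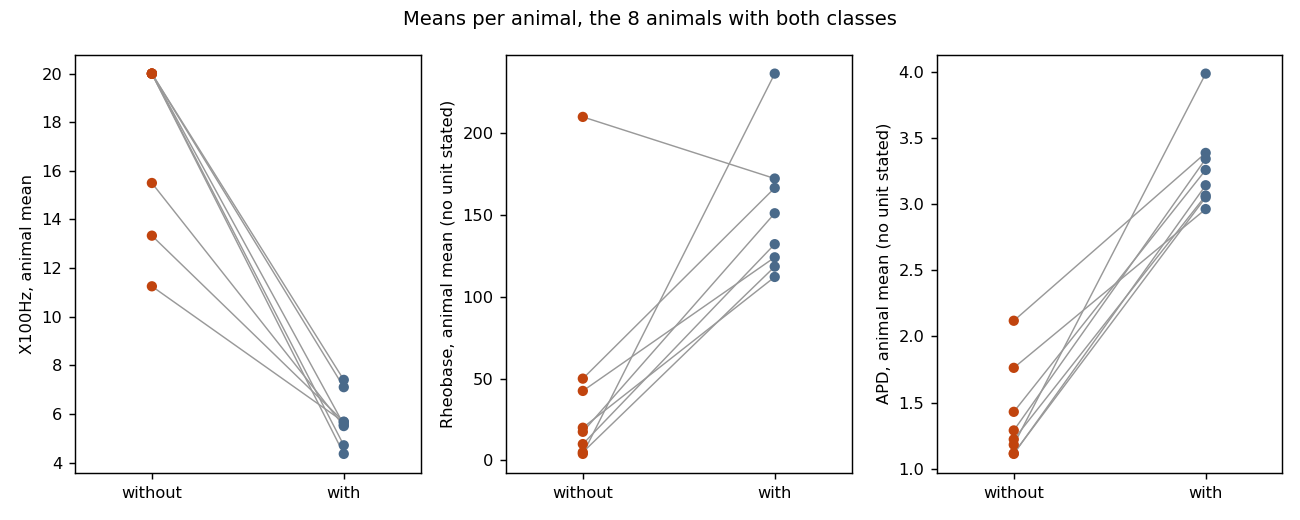
Mean of X100Hz, rheobase and APD in the neurons without (left) and with (right) a second inflection of each of the 8 animals that had both, joined by a line per animal. X100Hz was higher without the inflection in 8 of 8 animals, rheobase was lower in 7 of 8, and APD, shown as a description, was lower in 8 of 8.

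Most neurons without the inflection carried TRPM8. With TRPM8-positive taken as at least 5 log2(CPM + 1), 11 of the 15 (73.3%, interval 44.9 to 92.2%) were positive, against 33 neurons with the inflection (15.6%, 11.02 to 21.3%). Read the other way, 11 of 44 TRPM8-positive neurons and 4 of those below that level (2.198%) lacked the inflection. Per animal, 77.1 ± 36.7% of neurons without and 19.03 ± 16.3% of neurons with the inflection were TRPM8-positive (n = 8), a share that was higher in 7 of 8 animals (exact sign-flip p = 0.0156, adjusted p = 0.0859 over 11 cell properties, which misses 0.05). Animal 9 was the exception, since neither of its 2 neurons without the inflection reached the level. OSMR-positive neurons, which carry a cytokine receptor subunit of itch-related C-fibres, were 3 of 15 without the inflection and 73 neurons (34.6%) with it. Per animal their shares were 13.5 ± 19.9% without and 32.3 ± 13.9% with it, lower in 7 of 8 animals (exact p = 0.0156, adjusted p = 0.0859). With the neurons of under 5000 genes left out, 6 animals remained and both p-values were 0.0625, with differences of 57.7 percentage points for TRPM8 and -17.7 for OSMR. Neurons high in ADCYAP1, the precursor of the peptide PACAP, were 8 of 15 without and 65.4% with the inflection (exact p = 0.195 over animals).

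**Figure D3:**
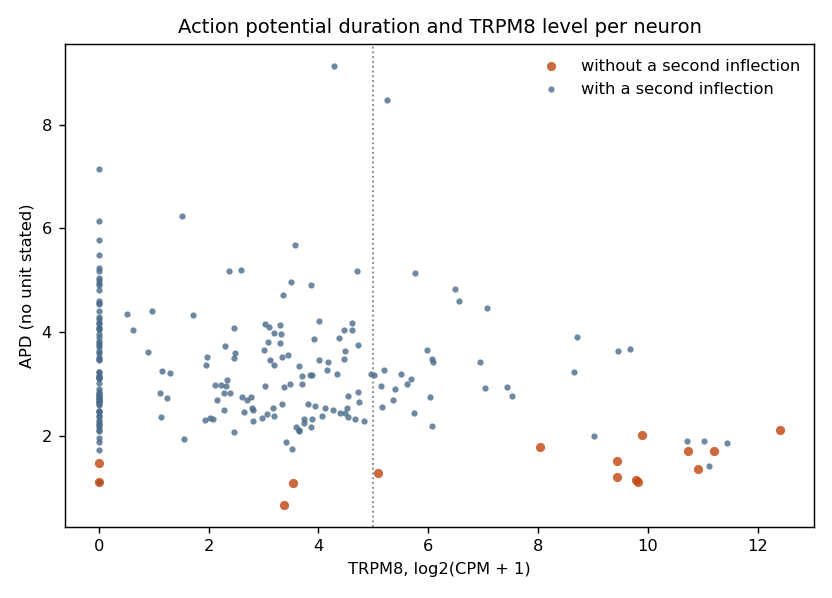
Level of TRPM8 (horizontal axis, log2(CPM + 1)) and action potential duration (vertical axis, APD, no unit stated) of each neuron, without and with a second inflection; the dotted line marks the level of 5 used to call a neuron TRPM8-positive. Of the 15 neurons without the inflection, 11 lie right of the line, and all 15 have an APD of 2.12 or less.

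To compare genes, the counts of all neurons of 1 class in an animal were added up, which left sums of 1 to 4 neurons without the inflection and of 10 to 34 neurons with it. In edgeR's quasi-likelihood test, with a block for each animal, 0.897% of 15270 genes were lower at a Benjamini-Hochberg adjusted p under 0.05 in neurons without the inflection. None was higher (0 genes, 0.0%), while 2452 genes had an unadjusted p under 0.05 in either direction. On simulated data, tests on such sums called too many unchanged genes, mostly lower. An edgeR adjusted p under 0.05 is therefore no guarantee of that error rate, here and in the paragraphs below. The median gene differed by -1.22 on the log2 scale, so single values have to be read against that shift. Of the lower genes, 88.3% averaged below 0 log2 CPM in the small sums, which is at or near no reads, and their fitted fold changes are no measure of size. With the median gene centred at 0, 3 genes were lower, and with only sums of at least 2 neurons, from 4 animals, 64 were higher and 63 lower.

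The second test compared, per animal, the means of single-neuron log2(CPM + 1) values with limma. Within a mean each neuron counts the same whatever its depth. Each mean also counts the same whatever its number of neurons, so the lone neurons of animals 3, 4, 5 and 6 weigh most. This second test called 15 genes higher (0.0982%) and 364 lower (2.38%), with a median difference over all genes of -0.70. The genes lower in both tests were 90.5% of those lower in edgeR and 34.1% of these 364. Leaving out neurons with under 5000 genes, a choice made after the data were seen, this test called 59 genes higher (0.386%) and 83 lower (0.544%), and all 15 of the higher genes were among the 59. Of those 83, 59 were among the lower genes of edgeR. The edgeR count of lower genes was smaller by more than 1.5 times without animals 2, 3, 4, 5, 6, 7 or 9 (40, 35, 64, 47, 53, 27 and 51 genes) and amounted to 0.826% of the genes tested without animal 10. It was 3 within neurons of 1 day, from 4 animals.

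The edgeR calls named in the following paragraphs are of 14 genes, and they held to different degrees. In the 8 fits that left out 1 animal, GAL was called in 8, IL31RA in 7, TAC1 in 5, SCN11A in 4 and ARG1 in 3. TRPV1, SST, KCNT2, TRPC4 and TRPC6 were called in 2 of these fits, BDNF and KCNQ5 in 1, and PROKR2 and CD44 in 0. With the median gene centred at 0, all 14 missed the threshold, with an adjusted p from 0.121 to 0.957. The 3 genes that passed there were IZUMO1, MEDAG and 1 without a symbol, named after their values were seen. Leaving out every neuron with a mitochondrial share above the median of the neurons without the inflection, a choice made after the data were seen, kept 8 neurons without it from 6 animals. No gene passed in that edgeR fit (0 genes), while 2974 had an unadjusted p under 0.05, and the 14 genes had an adjusted p from 0.109 to 0.142. With the TRPM8-positive neurons left out, another choice made after the data were seen, 0 genes passed as well and 581 had an unadjusted p under 0.05. That fit held only 4 neurons without the inflection, from 3 animals, and could detect little.

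Several nociceptor genes were lower. Of 21 nociceptor genes tested, 6 were lower (against 0.897% of all genes) and 0 higher in edgeR, namely TAC1, GAL, SCN11A, PROKR2, BDNF and TRPV1. In the test of single-neuron means 9 were lower (against 2.38% of all genes), those 6 with SCN10A, GFRA1 and GFRA3, and 1, GFRA2, was higher (against 0.0982%). Without the neurons of under 5000 genes, 4 were lower in that test (against 0.544%) and 1 higher (against 0.386%). The edgeR median of the list was -3.69 log2, beside -1.22 for all genes tested. In the single-neuron means it was -1.94 beside -0.70, and without the neurons of under 5000 genes -1.23 beside -0.32. The list was chosen with earlier results of these data known.

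TAC1 (ENSSSCG00000023592), the precursor of the pain peptide substance P, was read in all neurons. In the 15 neurons without the inflection it ran from 1.83 to 12.21 log2(CPM + 1) with a median of 8.37, and in neurons with it from 2.52 to 14.52 with a median of 12.41. The sums per animal were 4.79 to 10.01 log2 CPM without and 12.15 to 12.86 with the inflection. The difference was -4.18 ± 0.98 log2 (SE, edgeR adjusted p = 0.00962), lower in 8 of 8 animals. With the median gene centred at 0 it was -2.96 and missed the threshold (adjusted p = 0.562). Without animal 3, 7 or 9 TAC1 missed the threshold, with an adjusted p of up to 0.076, while within neurons of 1 day it passed (adjusted p = 1.87e-06), alone among the 14 genes whose edgeR call is named here.

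SCN11A (ENSSSCG00000029419), the gene of Nav1.9, had a median of 1.87 log2(CPM + 1) (range 0 to 8.99) in neurons without and of 6.67 (range 0 to 10.74) in neurons with the inflection. Of the 15 neurons without it, 5 had no read, against 10.4% of the neurons with it. The sums were -2.74 to 6.13 without and 7.03 to 8.54 log2 CPM with the inflection. The difference was -5.79 ± 1.41 (edgeR adjusted p = 0.017, lower in 8 of 8 animals). The adjusted p was up to 0.111 without animal 2, 3, 7 or 9.

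SCN10A (ENSSSCG00000011260), the gene of Nav1.8, had a median of 1.21 log2(CPM + 1) (range 0 to 6.996, 6 of 15 at 0) without and of 5.36 (range 0 to 8.08, 23.2% at 0) with the inflection. The sums of neurons without the inflection in animals 3, 4 and 6 held no read of it, at -2.74 log2 CPM, and the others reached 4.38, while the sums with the inflection ran from 4.96 to 6.39. The difference was -4.29 ± 1.32, but the gene missed the edgeR threshold (adjusted p = 0.0797). In the single-neuron means it was lower by a difference of -2.91 ± 0.71 (limma adjusted p = 0.00914), and without the neurons of under 5000 genes it missed the threshold there too (adjusted p = 0.0654). SCN9A, the gene of Nav1.7, differed by -1.60 ± 1.22 (edgeR adjusted p = 0.449), close to the median gene.

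GAL (ENSSSCG00000012883), which encodes the peptide galanin, had a median of 2.28 log2(CPM + 1) (highest 6.16) without and of 7.25 (highest 14.18) with the inflection. The sums were -2.74 to 4.93 log2 CPM without and 7.92 to 9.40 with it, and the difference was -6.35 ± 1.32 (edgeR adjusted p = 0.00287). GAL passed in all 8 fits that left out 1 animal, with an adjusted p of up to 0.0379. It missed the threshold within neurons of 1 day (adjusted p = 0.126), without the neurons of high mitochondrial share (0.109) and with the median gene centred at 0 (0.121). ARG1, the enzyme arginase, differed by -5.52 ± 1.36 (adjusted p = 0.0181), and CD44, a hyaluronan receptor, by -4.60 ± 1.26 (adjusted p = 0.0388). In the fits without 1 animal CD44 passed in 0 of 8 and ARG1 in 3 of 8, and ARG1 also missed the threshold in the single-neuron means (limma adjusted p = 0.074).

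TRPV1, the capsaicin receptor, had no read in 13 of the 15 neurons without the inflection, against 25.6% of the neurons with it. One neuron without it stood at 11.26 log2(CPM + 1), above the highest value of 8.47 among the neurons with the inflection. The difference was -6.68 ± 1.87 in edgeR (adjusted p = 0.046, lower in 7 of 8 animals), and it took the opposite sign, 1.57, in the fit without the animal block. PROKR2, a prokineticin receptor, differed by -4.77 ± 1.34 (adjusted p = 0.046) and BDNF, a neurotrophin, by -4.25 ± 1.20 (adjusted p = 0.0469). ADCYAP1 did not pass, at -2.54 ± 1.12 (edgeR adjusted p = 0.253), with medians of 7.17 without and 9.38 log2(CPM + 1) with the inflection.

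Some markers of the OSMR SST C-fibres were lower as well. Of 11 tested, 4 were lower (against 0.897% of all genes), 0 were higher and 7 did not pass in edgeR. The 4 were IL31RA, SST, SCN11A and TRPV1, of which SCN11A and TRPV1 are also in the nociceptor list. IL31RA, a subunit of the receptor of the itch cytokine IL-31, differed by -7.60 ± 1.64 (adjusted p = 0.00381), with medians of 1.21 log2(CPM + 1) without and 4.81 with the inflection. SST, the precursor of somatostatin, differed by -5.47 ± 1.44 (adjusted p = 0.0311, and up to 0.129 in the fits without 1 animal). OSMR itself differed by -4.72 ± 1.47 and missed the threshold (edgeR adjusted p = 0.0868).

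Genes of cold-sensing neurons gave calls in the single-neuron means and none in edgeR. Of 7 tested, 0 passed in edgeR in either direction (against 0.0% of all genes higher and 0.897% lower), and the median of the list was 2.25 log2 where all genes had -1.22. In the single-neuron means 3 were higher, TRPM8, PCP4 and PLCD4 (against 0.0982% of all genes), and without the neurons of under 5000 genes 6 were higher (against 0.386%). TRPM8 (ENSSSCG00000016314) ran from 0 to 12.41 log2(CPM + 1) with a median of 9.44 in neurons without the inflection and from 0 to 11.45 with a median of 2.69 in neurons with it. In the sums it was higher in 7 of 8 animals, at 10.04, 9.92, 12.67, 6.05, 8.28, 10.91 and 10.27 log2 CPM without against 6.42, 3.71, 6.56, 4.87, 5.34, 4.70 and 7.98 with the inflection. Animal 9 had 1.75 without and 6.39 with it. The difference was 3.50 ± 1.24 in edgeR (adjusted p = 0.145), and 4.90 ± 1.05 in the single-neuron means (limma adjusted p = 0.00215). PLCD4, a phospholipase C, had medians of 5.66 without and 0 with the inflection, with a difference of 3.67 ± 0.72 in the single-neuron means (limma adjusted p = 0.000773) and 3.88 ± 1.53 in edgeR (adjusted p = 0.204). PCP4, a calmodulin-binding protein, had medians of 9.90 without and 2.51 with it, with 4.22 ± 1.06 in the single-neuron means (limma adjusted p = 0.0115) and 2.25 ± 1.18 in edgeR (adjusted p = 0.319). Since members of this list were known to mark one group of these neurons, their direction is no independent evidence.

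The A-fibre markers gave 1 call, in the single-neuron means. Of 14 tested, 0 were higher and 0 lower in edgeR (against 0.0% and 0.897% of all genes). The median of the list was -0.56, beside -1.22 for all genes tested. In the single-neuron means 1 of 14, SCN1A, was higher (against 0.0982% of all genes) and 0 were lower (against 2.38%). There the list median was -0.091 beside -0.70, and without the neurons of under 5000 genes 0.443 beside -0.32. SCN1A had a median of 5.57 log2(CPM + 1) (range 0 to 7.88, 3 of 15 at 0) without and of 0 (range 0 to 7.62, 57.8% at 0) with the inflection. Its difference was 2.17 ± 0.67 in those means (limma adjusted p = 0.0486) and 1.67 ± 1.41 in edgeR (adjusted p = 0.478, higher in 5 and lower in 3 animals). The 3 were animals 4, 5 and 6, with 1 neuron each without the inflection, and those of animals 4 and 6 held no read of SCN1A. NTRK2 had medians of 3.71 without and 0 with the inflection and differed by 0.36 ± 1.16 in edgeR (adjusted p = 0.847, higher in 4 of 8 animals), a sign that turned without animal 2 or 7. NTRK3 had a median of 0 in both classes, with no read in 8 of 15 neurons without and 57.8% with the inflection, and differed by -1.73 ± 1.12 (edgeR adjusted p = 0.393). The lone neurons without the inflection in animals 3, 4, 5 and 6 held no read of NTRK3. In the sums it was higher without the inflection in animals 2 and 7 and lower in animals 9 and 10. PVALB, the calcium buffer of position-sensing neurons, had no read in 13 of the 15 neurons without and 81.5% with the inflection. Some classical A-fibre markers, NEFH and NEFM among them, could not be matched to an identifier and were not analysed here.

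**Figure D4:**
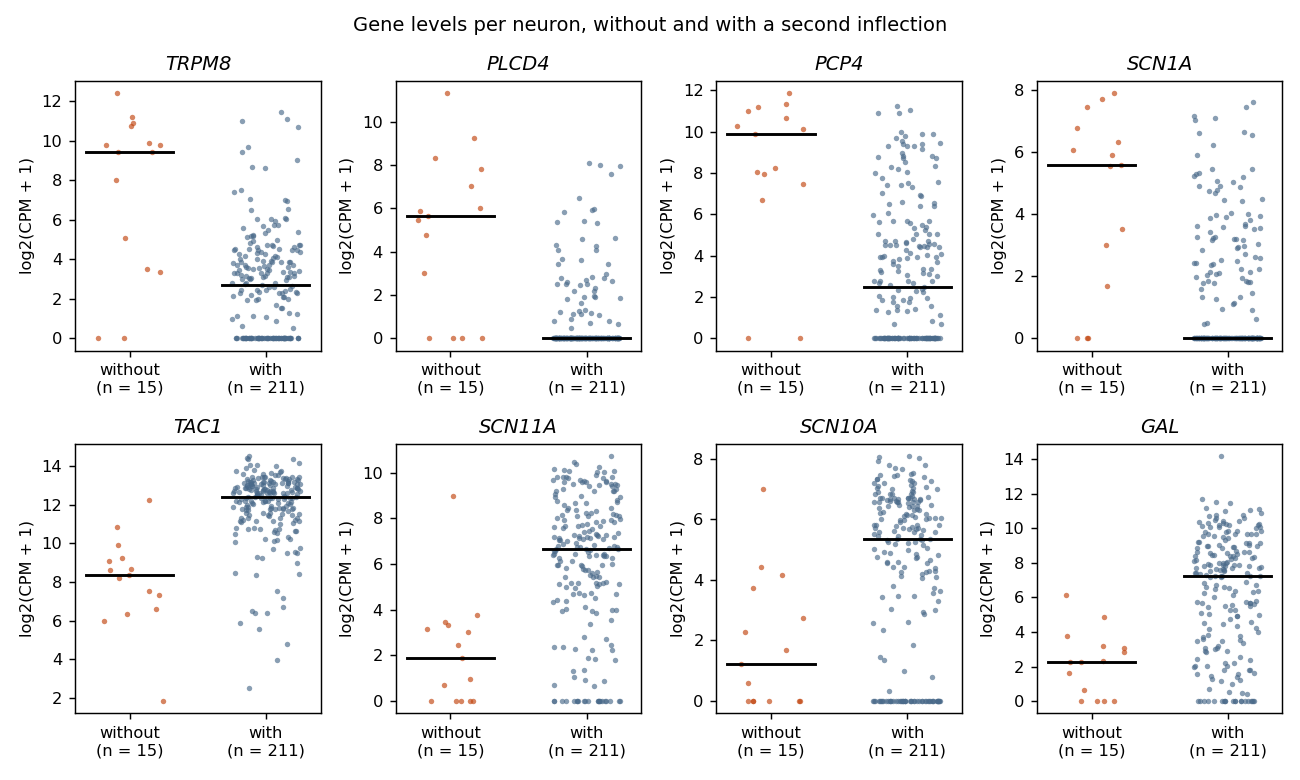
Levels of 8 genes in single neurons without (n = 15) and with a second inflection, as log2(CPM + 1); black lines are medians. TRPM8, PLCD4, PCP4 and SCN1A had higher medians without the inflection, and TAC1, SCN11A, SCN10A and GAL had lower ones.

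Potassium and TRP channel genes held calls too. Among 28 potassium channel genes, KCNQ5 (-4.22 ± 1.19, adjusted p = 0.0469) and KCNT2 (-5.09 ± 1.30, adjusted p = 0.0262) were lower, beside 0.897% of all genes, and 0 were higher in edgeR. Of 21 HCN, chloride and TRP channel genes, TRPC4, TRPC6 and TRPV1 were lower, again beside 0.897% of all genes. TRPC4 differed by -4.45 ± 1.12 (edgeR adjusted p = 0.0241) and TRPC6 by -4.90 ± 1.29 (adjusted p = 0.031). In the single-neuron means 5 of these 21 were lower, TMC3, TRPC1, TRPC4, TRPC5 and TRPV1, beside 2.38% of all genes. TRPM8 was higher, beside 0.0982%. Without the neurons of under 5000 genes, 2 of these 21 were lower and 1 higher there, beside 0.544% and 0.386% of all genes. Of the potassium channel genes, 2 were lower in the single-neuron means and 1 without those neurons, beside the same 2.38% and 0.544%. The calcium channel list had 0 of 10 called in either direction by either test. At 0.897% of all genes lower in edgeR and 2.38% in the single-neuron means, a list this short would hold few calls. Among 16 genes of axotomy and growth, GAL alone was lower in edgeR (beside 0.897% of all genes). The list median was -2.22, beside -1.22 for all genes tested. In the single-neuron means 4 were lower (beside 2.38% of all genes), GAL with ATF3, KLF6 and VGF. Without the neurons of under 5000 genes, 1 of the list was lower (beside 0.544%). With all neurons, ATF3, which nerve injury is known to switch on, differed by -3.12 ± 0.96 in the single-neuron means (limma adjusted p = 0.0488). GAP43, a growth cone protein, differed by -0.22 ± 1.06 (limma adjusted p = 0.906).

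Beside the cold-sensing markers, GFRA2 and SCN1A, the other named genes higher in the single-neuron means were PRKCB, ADCY2, TAFA1, RPH3A, RSPO2, CAP2, SPARCL1 and ADGB, named after their values were seen. PRKCB, a protein kinase C, differed by 3.42 ± 0.95 (limma adjusted p = 0.0265), and ADCY2, an adenylyl cyclase, by 1.54 ± 0.44 (adjusted p = 0.0303). GFRA2, a receptor subunit for the growth factor neurturin, differed by 2.75 ± 0.57 (limma adjusted p = 0.00161), with 5 of 15 neurons without and 84.4% with the inflection at 0. Among genes with a symbol, a mean above 4 log2 CPM and a higher value in at least 7 of 8 animals, those with the smallest edgeR p, none of which passed, were TRPM8, PRKCB, PCP4, PCDH9 (2.72 ± 1.05, adjusted p = 0.188), AMPH (1.93 ± 1.12, adjusted p = 0.355) and the mitochondrial CYTB (1.49 ± 0.87, adjusted p = 0.357). Without the neurons of under 5000 genes, 12 of 13 protein-coding mitochondrial genes were among the 59 higher ones. Of 14 genes of nearly all neurons tested, 4 were higher and 0 lower there (against 0.386% and 0.544% of all genes). Their median was 0.675 beside -0.32. With all neurons 0 of the 14 passed in either test. The medians were then -0.165 beside -1.22 in edgeR and -0.304 beside -0.70 in the single-neuron means. Under the limits on level and on animals given above, the lower genes of smallest edgeR p that missed the threshold were CARHSP1 (adjusted p = 0.0502), ANXA1, TMEM255A, PGM2, SEMA3C and KIT (up to 0.104).

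Genes of other cell types gave no calls. Of the satellite glia, Schwann cell, macrophage, and fibroblast and endothelial lists, 0 of 9, 0 of 8, 0 of 11 and 0 of 6 tested genes passed in either direction in either test. Of all genes 0.0% were higher and 0.897% lower in edgeR, and 0.0982% and 2.38% in the single-neuron means. Lists this short would hold few calls at such shares. The mean log2(CPM + 1) of the satellite glia list had a median over neurons of 3.67 without and 2.34 with the inflection. The medians were 3.53 and 3.13 for the Schwann cell list, 0.924 and 0.558 for fibroblast and endothelial genes, and 0.908 and 1.15 for macrophage genes. Averaged per animal, each list was lower without the inflection (exact sign-flip tests, adjusted p from 0.307 to 0.797). With the neurons of under 5000 genes left out, 6 animals remained and each list was higher instead. The differences were then 0.464 for satellite glia, 0.200 for Schwann cell, 0.0131 for macrophage and 0.184 for fibroblast and endothelial genes. Satellite glia also turned higher without animal 5 (0.0418) or 6 (0.124), and fibroblast and endothelial genes without animal 5 (0.0187). The summed macrophage level ran from 0 to 1631 CPM (median 30.2) in neurons without and from 0 to 6037 CPM (median 83.2) in neurons with the inflection. The part of these cells in the results was not tested beyond the fit without the top macrophage cells.

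Because most neurons without the inflection were TRPM8-positive, they were also set against TRPM8-positive neurons with it, a comparison added after the data were seen. It held 11 neurons without and 29 with the inflection from 7 animals. X100Hz averaged 16.8 ± 4.25 without and 7.16 ± 2.63 with the inflection, higher in 7 of 7 animals (exact p = 0.0156, adjusted p = 0.559). Rheobase averaged 35.2 ± 41.01 without and 116.04 ± 72.9 with it (exact p = 0.0469, adjusted p = 0.559). APD had a median of 1.53 in 11 TRPM8-positive neurons without and 3.10 in 33 with the inflection, and below the TRPM8 level of 1.11 in 4 neurons without and 3.15 in neurons with it. In edgeR 0 genes passed in either direction among the TRPM8-positive neurons, and 579 had an unadjusted p under 0.05. TAC1 differed there by -3.49 ± 1.00 (adjusted p = 0.277), with medians of 8.37 without and 11.73 log2(CPM + 1) with the inflection. GAL differed by -5.79 ± 1.62 (adjusted p = 0.277), with medians of 2.28 without and 7.25 with it. SCN10A differed by -1.87 ± 1.48 (adjusted p = 0.694), with medians of 1.68 without and 4.09 with it. Within neurons of 1 day, from 4 animals, X100Hz averaged 17.8 ± 4.50 without and 6.20 ± 1.57 with the inflection and rheobase 25 ± 18.7 without and 115.6 ± 11.1 with it, both in the same direction in 4 of 4 animals (exact p = 0.125, the smallest that 4 animals allow).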

How the data were processed

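The series has 226 neurons, 15 coded 0 and 211 coded 1, and edgeR called 137 genes lower. The deposited gene table holds estimated counts made by the authors for 30420 genes, not scaled to library size. The deposited cell table holds the other values, 1 per neuron and recorded parameter, made by the authors with no units stated. Per the submitters' processing notes bcl2fastq 2.20 was used; the sources used here name no aligner, genome build or annotation. Of the identifiers 14867 had a symbol. The cell table's 43 lines of no sample used here were left out, and 0 count columns lay outside the samples.

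Counts were summed per animal and class, rounded, and tested with edgeR 4.0.16 (TMM, filterByExpr, quasi-likelihood, the animal as a block, R 4.3.3); log2 CPM of sums used a prior count of 2. Single-neuron means used a pseudocount of 1 and limma 3.58.1, and DESeq2 1.42.0 was an alternative. Recorded columns measured in at least 70% of neurons were compared by exact sign-flip tests over animals, paired by the cell table's animal column. Of the shape columns 314 were described only. Tested on simulated data, the tests on sums called too many unchanged genes, mostly lower, and the single-neuron means fewer. Members and lists were chosen with earlier results of these data known. Named genes were up to 12 per direction past the threshold with a mean above 4 log2 CPM and the same sign in all but 1 animal, then up to 6 that missed it. Neurons were picked singly, so no doublet caller was run. Reads are unstranded, so antisense partners cannot be told apart. Animals are separate, but nothing says how cultures were split.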

Additional observations from a re-analysis of the deposited data

Results flagged for a closer look

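Of the groups of animal values checked, 11 (10.2%) had 1 animal far from the rest, where chance gives about 1 in 20. That chance share does not hold for values at a ceiling. At 10 and 20 Hz without the inflection, every animal except animal 10 stood at 20, so any other value is flagged. Without the inflection, animal 10 was lowest at 10 Hz (19), 20 Hz (16.75) and 50 Hz (14.75), animal 7 was highest in rheobase (210) and animal 9 in input resistance (1.12), and PCP4 was lowest in animal 5, with no read (-2.74 log2 CPM). With the inflection, ARG1 was lowest in animal 2 (9.39 log2 CPM), CD44 highest in animal 3 (10.81), CYTB highest in animal 6 (12.73), APD highest in animal 2 (3.98) and the amplitude lowest in animal 2 (102.04).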

How the results depend on the processing

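The share of tested genes called higher and lower, 0 and 0.897% in edgeR, depended on the setting. It was 0.00655 and 1.13% with DESeq2 size factors, 0.223 and 8.89% with DESeq2, 0.0262 and 15.5% with limma-voom, 0.0233 and 1.36% with no filter, 0.478 and 1.34% with no replicate block, 0.392 and 0.386% with at least 2 cells per sum, 0.0982 and 2.38% with single-neuron means, and 0.108 and 5.20% with day as covariate. It was 0 higher with 0.0249% lower at 1 day only, 1.58% without OSMR-positive cells, 0.258% in ADCYAP1-high cells, 1.22% without the top macrophage cells and 0.566% without shallow cells. Added later were TRPM8-positive cells only, TRPM8-positive cells left out and the high mitochondrial shares left out (0 and 0 each), no cells under 5000 genes (0.0771 and 0.488%), the median gene centred at 0 (0 and 0.0196%), and single-neuron means without such cells (0.386 and 0.544%) or weighted by cell number (0.269 and 1.10%). Leaving out 1 animal gave 0 higher and 0.175 to 0.826% lower. Recorded columns past the threshold were 0, but 9 with no replicate block, 7 when train columns after the first pulse were dropped (33.3% of 21) and 5 with ranks. The fits without 1 animal, 0 in each, say nothing of stability, since with 7 animals a call needs many columns at or near the smallest p. The differences in share without 1 animal were 53.5 to 67.7 percentage points for TRPM8, -21.9 to -16.4 for OSMR and -28.4 to -13.7 for ADCYAP1. The OSMR difference at a level of 6 was -17.5 (p = 0.0625, exact), the ADCYAP1 difference at a level of 8 was -28.1 (p = 0.0469, exact), and without cells of under 5000 genes the differences were 57.7 for TRPM8 and -17.7 for OSMR (each exact p = 0.0625).

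Signs turned, none of them past the threshold, as follows. With TRPM8-positive cells left out, TRPM8 was at -0.97, PCDH9 -0.34, PRKCB -0.47, AMPH -0.087 and FOXP2 -1.17 log2. That fit kept 4 neurons without the inflection from 3 animals, and its cells were chosen by TRPM8 itself. Without high mitochondrial shares CYTB was at -0.53 and NTRK2 at -1.26. NTRK2 ran from -0.13 to 0.81 in the fits without 1 animal, negative without animal 2 (-0.12) or 7, OSMR at 0.75 in ADCYAP1-high cells and TRPV1 at 1.57 with no replicate block. The difference at 20 Hz was -0.375 with medians, diameter was 2.15 in ADCYAP1-high cells, and input resistance ran from -0.0384, without animal 9, to 0.117 in the fits without 1 animal, and was -0.0126 without OSMR-positive cells and -0.0571 in TRPM8-positive cells, where the resting potential was at 0.164. The lists of other cell types turned from lower to higher without cells of under 5000 genes, with the values given above. The causes were not tested. Sums of 1 neuron limit what was detectable for low genes.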
